A study of Drosophila melanogaster with 12 samples.

Results

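The 8 genes described here encode transcription factors that divide the *Drosophila* wing disc into territories: *vestigial* (*vg*), *scalloped* (*sd*), *apterous* (*ap*), *nubbin* (*nub*), *Distal-less* (*Dll*), *homothorax* (*hth*), *teashirt* (*tsh*) and *rotund* (*rn*). Members were the rows whose symbol is one of these names, which gave 8 of 15240 genes, and all 8 were among the 8469 genes abundant enough to be tested. The question was which of them outlast the disc stage. RNA was sequenced from pools of dissected wings at L3 (the wandering larval stage) and at 6, 18, 24, 36 and 44 h after puparium formation (APF), with 2 replicate libraries per timepoint and 12 in all. All animals carried 1 genotype, w1118/y,w, hs-FLP; + ; +, with no treatment or transgene that differed between timepoints. The titles place the L3 libraries at 0 h APF and the design text at -10 h, and they are called L3 here.

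The wing disc carries the future wing blade in its centre, the hinge around it and the body wall of the notum at one side. Vg has no DNA-binding domain of its own and forms a complex with the TEAD protein Sd, which together specify blade identity. Ap, a LIM-homeodomain protein, marks dorsal cells, Nub is a POU-domain protein of the blade and distal hinge, and Dll is a homeodomain protein active near the margin. Hth, a TALE-homeodomain protein, brings its partner Exd into the nucleus in proximal cells, and the zinc finger protein Tsh is made in hinge and notum. Rn, a zinc finger protein, is made across the pouch. During metamorphosis the disc everts, the wing surfaces flatten against each other, cells pass a last cycle and the blade then makes hairs and cuticle.

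All 8 genes were still well above the detection floor at 44 h. Their mean level there was between 23.3% (*tsh*) and 76.2% (*nub*) of the L3 level, in CPM (counts scaled to the library's reads on genes) adjusted by edgeR's TMM method, whereas 3 counts corresponded to 0.363 to 1.53 CPM. The 8 followed different courses. *tsh* fell early and stayed low; *sd*, *ap* and *nub* rose from 6 h to a peak at 18 or 24 h; *rn* was highest at 6 h and lowest at 36 h; *Dll* fell at the last step; *hth* was highest at L3; and *vg* passed the test at no step with TMM scaling. The comparisons used edgeR's quasi-likelihood test over the 12 libraries with Benjamini-Hochberg adjustment over all 8469 genes. A gene is called past the test with an adjusted p under 0.05 and a fitted change of at least 2-fold.

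**Figure D1:**
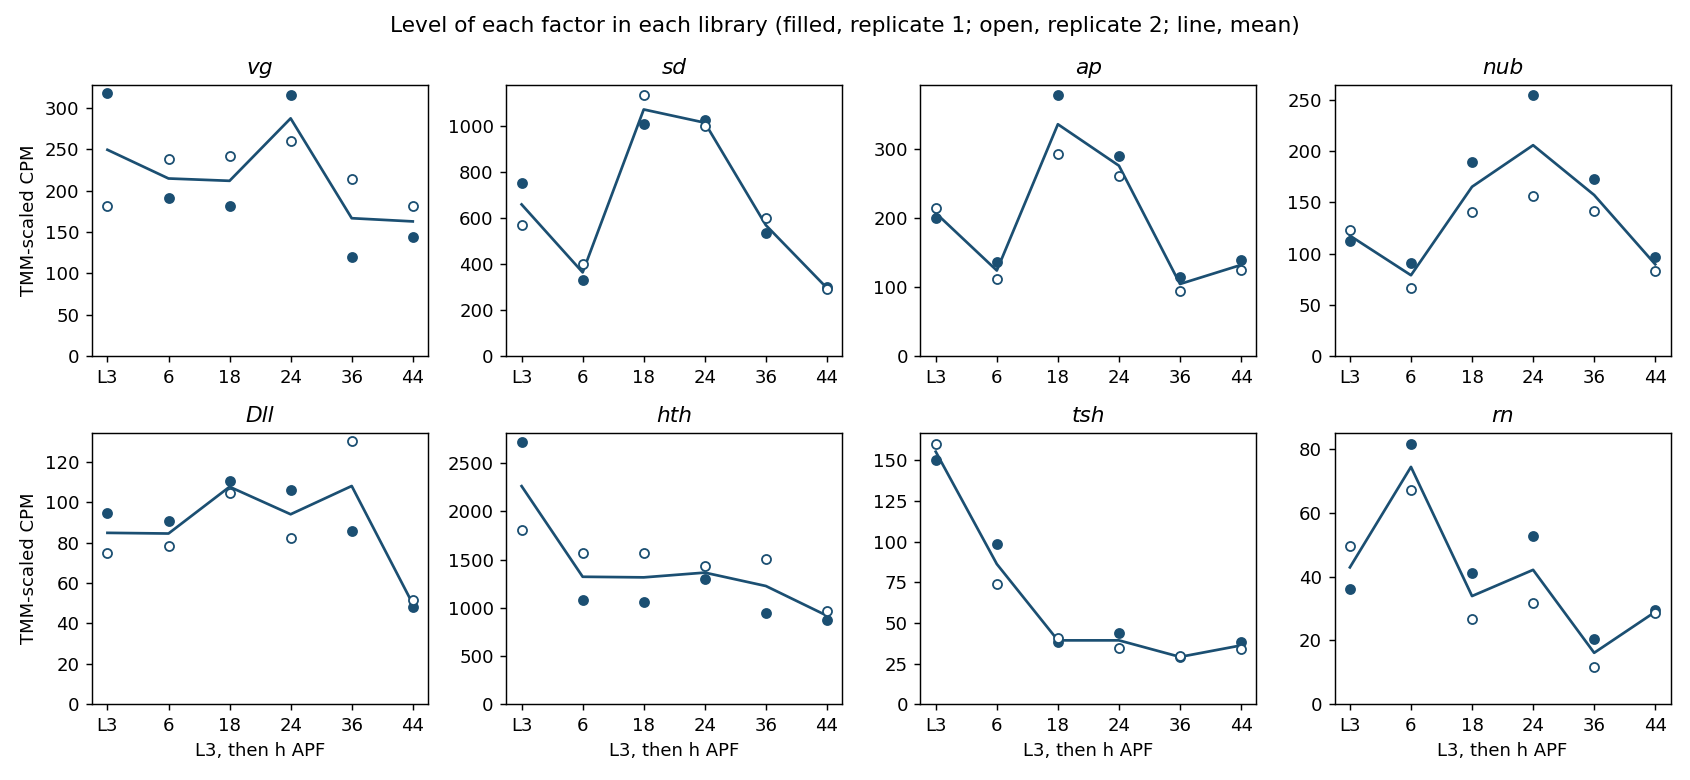
TMM-scaled CPM (linear axes from 0) of each factor in each of the 12 libraries, with filled points for replicate 1, open points for replicate 2 and a line through the mean of the 2. *tsh* fell from 150 and 160 CPM at L3 to 38.0 and 40.6 (18 h), and *sd* rose from 330 and 399 CPM at 6 h to 1008 and 1137 (18 h).

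Libraries held 1659208 to 6900002 reads on genes, with a median of 4587594.5. Spearman correlations between replicates across genes were lowest at 6 h (0.949) and highest at L3 (0.991). The tissue was not blade alone. At L3 the myoblast gene *twi* measured 18.2 and 16.4 CPM. Of the peripodial, haltere or leg disc markers, *Ubx* measured 16.8 and 11.0 CPM, *odd* 8.12 and 8.19 CPM, and *Scr* had 2 and 0 counts. Summed over 5 fat body genes, the level was 4.36 and 4.72 CPM at L3 and between 88.7 and 567 CPM in the 10 later libraries, with the highest value in 6 h replicate 2. The part of these cells in the changes of the 8 factors was not tested. In bulk tissue fewer cells of a type and less RNA per cell cannot be told apart, which holds for every change given here.

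Against L3, the number of factors past the test was 0 of 8 at 6 h, where 32.8% of all tested genes were past it. DESeq2's Wald test also gave 0 at 6 h, where it called 2659 of the 8469 genes. By 18 h it was 1 (18.1% of all genes), by 24 h 1 (27.7%), by 36 h 2 (46.5%) and by 44 h 3 (48.4%). Every one of these calls was a fall, and the share of all tested genes that fell was 14.7% at 6 h, then 8.67% (18 h), 13.4% (24 h), 21.3% (36 h) and 21.5% (44 h). The 5 comparisons share the L3 libraries, so their values are not independent. With the adjusted p alone and no fold minimum, the counts were 3 for 6 h (45.4% of all genes), 3 for 18 h (25.9%), 3 for 24 h (39.4%), 4 for 36 h (59.9%) and 5 for 44 h (62.8%). The median log2 fold change of the 8 at 44 h was -0.71, beside 0.00 over all tested genes.

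**Figure D2:**
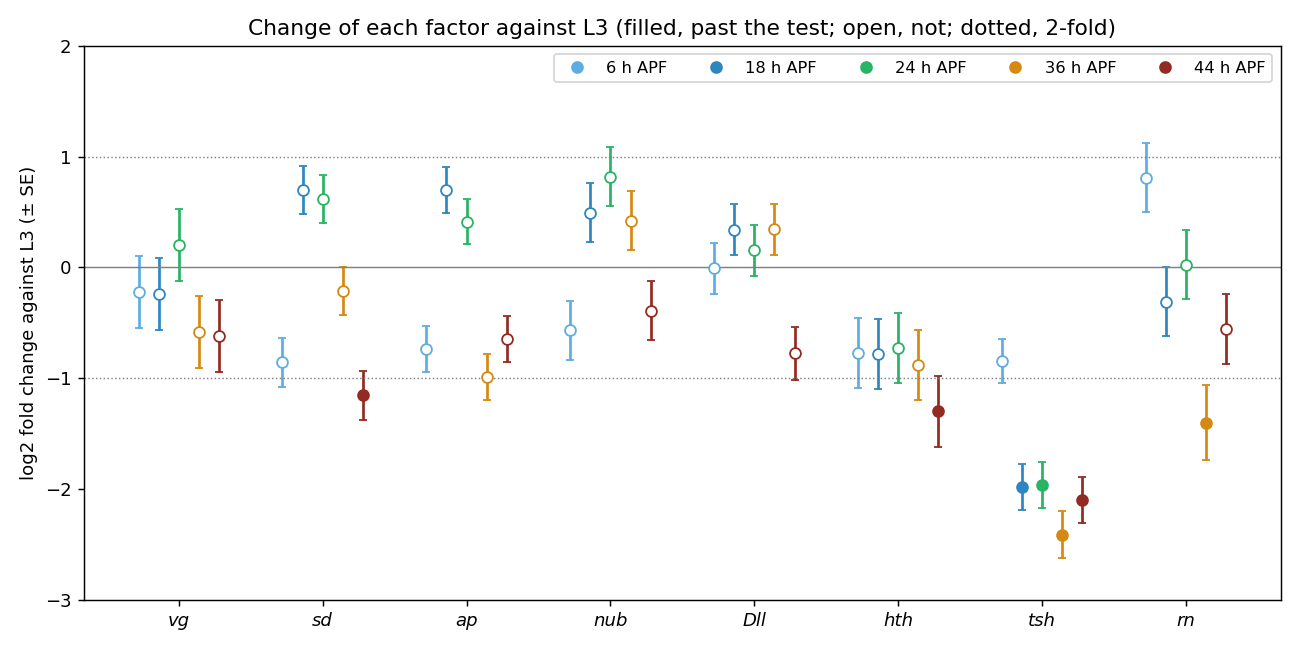
Fitted log2 fold change of each factor against L3 at the 5 later timepoints, with bars for the standard error, filled points past the test and dotted lines at 2-fold. The filled points are *tsh* at 18, 24, 36 and 44 h, *rn* at 36 h, and *sd* and *hth* at 44 h, all below 0.

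Between consecutive timepoints, 5 of the 8 passed the test from 6 to 18 h, when 32% of all tested genes did: *sd*, *ap* and *nub* rose (14.3% of all genes did), and *tsh* and *rn* fell (17.8%). From 18 to 24 h it was 0 of 8, with 8.81% of all genes past the test, and 0 of the 8 had an adjusted p under 0.05, against 12.4% of all genes. DESeq2's Wald test gave 0 here too, where it called 723 of the 8469 genes. From 24 to 36 h it was 2 of 8 (*ap* and *rn*, both lower; 25.4% of all genes were past the test and 10.1% lower). From 36 to 44 h it was 1 of 8 (*Dll*, lower; 19.9% of all genes were past the test and 9.38% lower). These steps share libraries with their neighbours and, for 6 h, with the comparison against L3.

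*tsh* fell the furthest. It is needed for proximal identity and is switched off in the blade as the disc grows. Its level was 150 and 160 CPM at L3, 98.8 and 73.7 (6 h), 38.0 and 40.6 (18 h), 43.9 and 34.7 (24 h), 28.8 and 29.4 (36 h), and 38.2 and 34.2 (44 h). Both L3 libraries lay above every other library, both 6 h libraries above every later one, and the 8 libraries from 18 h on lay between 28.8 and 43.9 CPM. The log2 fold change against L3 was -1.98 ± 0.20 (SE, 2 libraries per timepoint; edgeR adjusted p 4.08e-05) at 18 h, reached -2.41 ± 0.21 (adjusted p 2.09e-06) by 36 h and was -2.10 ± 0.21 (adjusted p 3.99e-06) by 44 h. All 4 falls from 18 h on passed the test under each of the 11 alternative settings, of which no fold minimum could not lose a call. They also passed under every removal of 1 library. At 6 h the log2 change of -0.84 ± 0.20 (adjusted p 0.00445) was under 2-fold. The fall from 6 to 18 h was -1.14 ± 0.20 on the log2 scale (adjusted p 0.000804), and was under 2-fold without 6 h replicate 1 (-0.91).

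The paralog of *tsh*, *tiptop* (*tio*), lies near it on arm 2L and encodes a related zinc finger protein. *tio* measured 36.0 and 36.5 CPM at L3, 16.0 and 8.84 (6 h), 6.27 and 9.52 (18 h), and 5.22 and 7.69 (44 h). It was past the test already at 6 h against L3 (log2 change -1.51 ± 0.33, edgeR adjusted p 0.00309) and at 44 h stood at -2.47 ± 0.35 (adjusted p 7.49e-05). In both genes the L3 libraries lay above all others.

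Genes of the notum were also lower after L3, though their sum was not in step with *tsh* at 24 h in replicate 1. Summed over 7 notum genes (*pnr*, *tup*, *ara*, *caup*, *mirr*, *eyg*, *toe*), the level was 423 and 362 CPM at L3, 224 and 144 (6 h), 102 and 121 (18 h), 220 and 120 (24 h), 104 and 149 (36 h), and 82.8 and 110 (44 h). From 18 to 24 h *toe*, a Pax gene, rose from 5.75 and 8.68 CPM to 19.3 and 11.2 CPM (edgeR adjusted p 0.0362) and the other 6 did not pass the test, while *tsh* was at 0.02 ± 0.21 (adjusted p 0.973). Against L3, 5 of the 7 were lower at 6 h (14.7% of all tested genes), 6 of 7 at 18 h (8.67%), 5 of 7 at 24 h (13.4%), 6 of 7 at 36 h (21.3%) and 7 of 7 at 44 h (21.5%). The GATA factor gene *pnr* went from 24.8 and 21.7 CPM at L3 to 2.37 and 3.64 at 44 h, the LIM-homeodomain gene *tup* from 30.3 and 29.0 to 1.42 and 2.83, and the Pax gene *eyg* from 32.6 and 31.2 to 2.14 and 4.25. From 18 to 24 h the means of *pnr* (1.79 and 2.05 CPM) and *tup* (1.42 and 1.29) stayed low. *mirr* measured 24.2 and 39.7 CPM at 18 h and 72.5 and 34.2 at 24 h, replicates that overlapped. The sum weighs most on *mirr*, *caup* and *ara*, which had the highest L3 means (137, 70.1 and 65.5 CPM). How much notum each dissection held was not recorded in the labels, and the part of this in the falls of *tsh*, *tio* and *hth* was not tested.

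**Figure D3:**
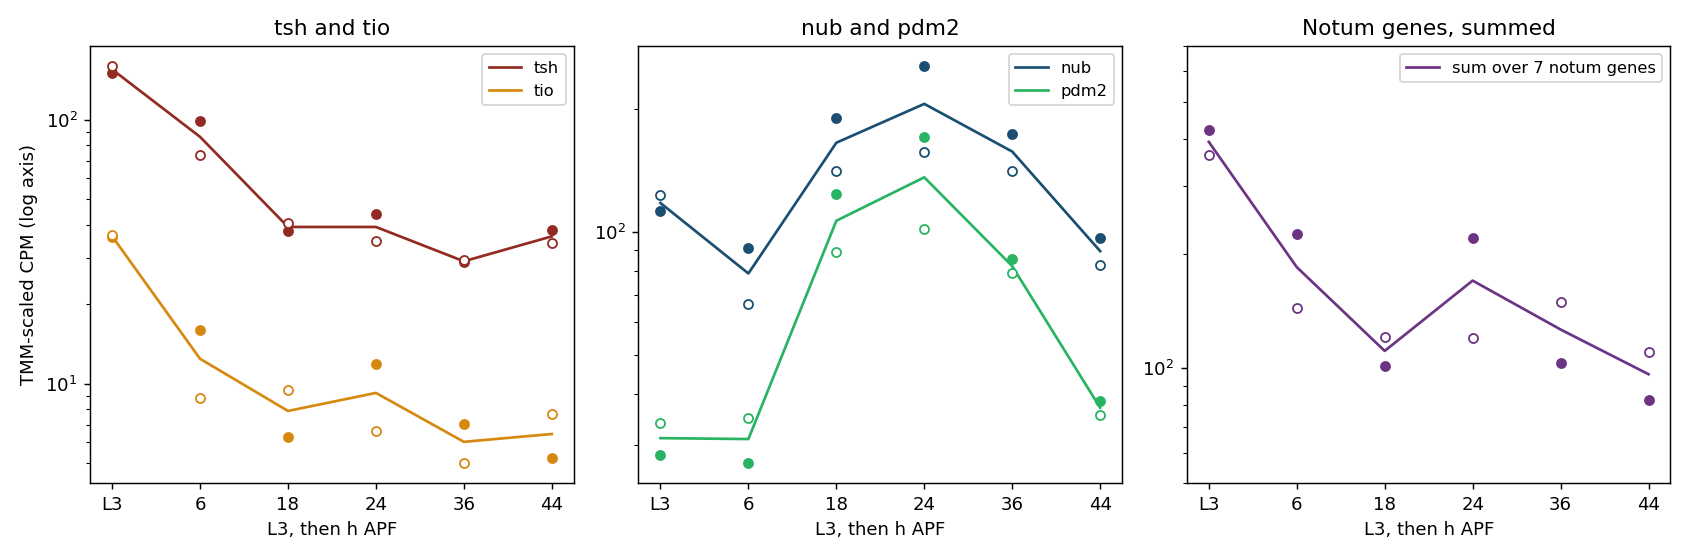
TMM-scaled CPM on log axes of *tsh* with its paralog *tio*, of *nub* with its paralog *pdm2*, and of 7 notum genes summed, with filled points for replicate 1, open points for replicate 2 and a line through the mean. The notum sum was 423 and 362 CPM at L3, 220 and 120 CPM at 24 h and 82.8 and 110 CPM at 44 h.

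*hth* had the most reads of the 8 at every timepoint. It measured 2722 and 1804 CPM at L3, 1079 and 1566 (6 h), 1064 and 1569 (18 h), 1301 and 1430 (24 h), 945 and 1508 (36 h), and 873 and 964 (44 h). Both L3 libraries lay above all 10 others, and from 6 to 36 h the replicates of each timepoint overlapped those of the next. The log2 fold change against L3 was -1.30 ± 0.32 (edgeR adjusted p 0.00384) at 44 h, and -0.88 ± 0.32 (adjusted p 0.0303) at 36 h, which was under 2-fold. The call at 44 h rested on L3 replicate 1, the deeper of the L3 libraries: without it the log2 change was -0.97 (adjusted p 0.0481). *hth* was also the 1 member with an exon on its locus shared with another annotated gene, an antisense RNA (asRNA:CR44018), and reads of the 2 cannot be told apart where the counting ignored strand. The other 7 share no exon with another gene in the BDGP6 annotation.

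The gene of the partner of Hth, *extradenticle* (*exd*), was highest at 18 h by mean level. It measured 224 and 222 CPM at L3, 362 and 283 (18 h), 235 and 279 (24 h) and 187 and 150 (44 h). Its log2 change against L3 was 0.53 ± 0.23 (edgeR adjusted p 0.109) at 18 h and -0.40 ± 0.23 (adjusted p 0.149) at 44 h. Neither passed the test, nor did the step from 18 to 24 h (adjusted p 0.381). At 18 h *hth* stood at 58.2% of its L3 mean, also not past the test (edgeR adjusted p 0.0897).

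*sd*, the DNA-binding subunit of the blade selector complex, rose from 6 h to a peak at 18 and 24 h. It measured 751 and 569 CPM at L3, 330 and 399 (6 h), 1008 and 1137 (18 h), 1029 and 1002 (24 h), 537 and 602 (36 h), and 300 and 293 (44 h). The 4 libraries of 18 and 24 h lay above all others, those of L3 and 36 h overlapped, and those of 44 h were the lowest. From 6 to 18 h *sd* rose by 1.56 ± 0.22 on the log2 scale (edgeR adjusted p 0.000158). Against L3 it was at -0.86 ± 0.22 (adjusted p 0.0072) at 6 h and +0.70 ± 0.22 (adjusted p 0.0336) at 18 h, both under 2-fold. At 44 h it was at -1.15 ± 0.22 (adjusted p 0.000685). Without L3 replicate 1 this last value was -0.94 and that of *hth* -0.97, so neither kept its call at 44 h. From 24 to 36 h *sd* was at -0.83 ± 0.22 (adjusted p 0.0111) and from 36 to 44 h at -0.94 ± 0.22 (adjusted p 0.0073), each under 2-fold with replicates that did not overlap.

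*vg*, which encodes the partner of Sd, showed no such swing. It measured 318 and 181 CPM at L3, 191 and 238 (6 h), 181 and 242 (18 h), 315 and 260 (24 h), 119 and 214 (36 h), and 144 and 182 (44 h). The L3 replicates differed by more than the means of any later timepoint differed from the L3 mean, and every timepoint overlapped L3. With TMM and all libraries, *vg* was past the test in none of the 9 comparisons, and the smallest adjusted p was 0.0801, for 36 h against 24 h. With library size alone it was past the test at 36 h against L3 (-1.09), 44 h against L3 (-1.46) and 36 h against 24 h (-1.17). The median changes of all tested genes there were -0.51, -0.87 and -0.44. With RPKM at a pseudocount of 1 *vg* was past the test in the same comparisons (-1.46, -1.13 and -1.61), where those medians were -0.66, -0.42 and -0.60. The library sizes behind RPKM included records not assigned to a gene. With TMM the log2 change of *vg* at 44 h against L3 was -0.62 ± 0.33 (edgeR adjusted p 0.117), under 2-fold and with a wide error. With a single library at 36 h, replicate 1, *vg* was past the test in 2 comparisons (log2 change -1.06, adjusted p 0.0346, against L3, and -1.27, adjusted p 0.034, against 24 h).

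Other partners and antagonists of Sd are the Hippo pathway coactivator gene *yorkie* (*yki*) and the Sd corepressor gene *Tgi*, which the files list as CG10741. *yki* stayed between 61.2 and 76.9 CPM in the 10 libraries up to 36 h and reached 100 and 98.7 CPM at 44 h, a log2 change of 0.51 ± 0.17 against L3 (edgeR adjusted p 0.022). *Tgi* measured 90.0 and 80.6 CPM at L3, 135 and 111 (6 h), 43.2 and 40.6 (18 h), 51.3 and 43.8 (24 h), and 118 and 137 (44 h). Its fall from 6 to 18 h was -1.55 ± 0.19 (adjusted p 6.39e-05), at the step where *sd* rose. *Tgi* was low in the 4 libraries in which *sd* was high.

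*ap* was highest at 18 and 24 h and lowest at 36 h. It measured 200 and 214 CPM at L3, 136 and 112 (6 h), 379 and 293 (18 h), 290 and 261 (24 h), 114 and 94.9 (36 h), and 139 and 125 (44 h). The 18 and 24 h libraries lay above those of L3, and the L3 libraries above those of 6, 36 and 44 h. *ap* rose by 1.44 ± 0.21 on the log2 scale from 6 to 18 h (edgeR adjusted p 0.000194) and fell by 1.40 ± 0.21 from 24 to 36 h (adjusted p 0.00036), and both calls held with each library left out. At 36 h it was at -0.99 ± 0.21 against L3 (adjusted p 0.00159), just inside 2-fold, and it passed without L3 replicate 1 (-1.03) or 36 h replicate 1 (-1.13). At 44 h it was at -0.65 ± 0.21 (adjusted p 0.0163).

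Ap acts in a complex with the cofactor Chip (*Chi*), and the LIM-only protein of *Beadex* (*Bx*) competes for it. *Chi* measured 46.8 and 46.3 CPM at L3 and between 23.3 and 46.1 CPM later, and passed the test in none of the 9 comparisons. *Bx* measured 86.7 and 59.2 CPM at L3, 47.2 and 20.7 (6 h), 72.9 and 72.2 (18 h), 62.6 and 68.8 (24 h), 83.0 and 111 (36 h), and 25.9 and 27.9 (44 h). *Bx* rose by 1.07 ± 0.32 on the log2 scale from 6 to 18 h (edgeR adjusted p 0.018), the step at which *ap* rose. Its fall from 36 to 44 h was -1.85 ± 0.33 on the log2 scale (edgeR adjusted p 0.00137). By mean level *Bx* was highest at 36 h, when *ap* was lowest. Its change there against L3 was 0.40 ± 0.31 (adjusted p 0.285), with replicates that overlapped. Of 6 genes of the dorsal compartment, 2 were higher and 0 lower at 44 h than at L3. These were *mew*, an integrin subunit gene of dorsal cells (163 and 128 CPM at L3, 608 and 504 at 44 h), and *fng*, which encodes a glycosyltransferase that modifies Notch (163 and 168 to 382 and 384 CPM). The share of all tested genes that were higher was 26.9%.

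*nub* was the factor closest to its L3 level at 44 h. It measured 112 and 123 CPM at L3, 91.4 and 66.6 (6 h), 190 and 141 (18 h), 255 and 157 (24 h), 173 and 141 (36 h), and 96.3 and 83.0 (44 h). All 6 libraries of 18 to 36 h lay above those of the other timepoints. The rise from 6 to 18 h was 1.06 ± 0.27 on the log2 scale (edgeR adjusted p 0.00735), just past 2-fold. It was 0.86 without 6 h replicate 2 and 0.83 without 18 h replicate 1, neither past the test. At 24 h *nub* was at +0.82 ± 0.27 against L3 (adjusted p 0.0295), and past the test (1.15) without 24 h replicate 2, the shallowest library. At 44 h it was at -0.39 ± 0.27 (adjusted p 0.22).

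The paralog *pdm2*, beside *nub* on arm 2L, rose at the same step. It measured 28.3 and 34.0 CPM at L3, 27.0 and 35.0 (6 h), 124 and 89.3 (18 h), 171 and 101 (24 h), 85.6 and 79.1 (36 h), and 38.4 and 35.6 (44 h). Its log2 change against L3 was 1.78 ± 0.27 at 18 h (edgeR adjusted p 0.000668) and 2.15 ± 0.27 at 24 h (adjusted p 0.00011). At 44 h it was at 0.26 ± 0.27 (adjusted p 0.429). Both POU genes were thus highest from 18 to 36 h and within 2-fold of their L3 level at 44 h.

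*Dll* was the flattest up to 36 h with TMM scaling. It measured 94.7 and 75.0 CPM at L3, 90.5 and 78.5 (6 h), 111 and 105 (18 h), 106 and 82.1 (24 h), 85.9 and 130 (36 h), and 47.9 and 51.4 (44 h). Both 44 h libraries lay under all 10 others. The fall from 36 to 44 h was -1.12 ± 0.24 on the log2 scale (edgeR adjusted p 0.00425), and -0.79 (adjusted p 0.0501) without 36 h replicate 2. Against L3 the change at 44 h was -0.78 ± 0.24 (adjusted p 0.0128), under 2-fold. With RPKM the rise of *Dll* from 6 to 18 h was past the test (log2 change 1.08 and 1.06 at pseudocounts of 0.1 and 1). The median changes of all tested genes there were 0.70 and 0.52.

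Of 5 genes of the wing margin, where *Dll* is active, 3 were lower and 0 higher at 44 h than at L3 (21.5% and 26.9% of all tested genes), and all 3 belong to sensory organ formation. The proneural genes *sc* and *ac* went from 23.9 and 25.2 CPM and from 18.2 and 9.13 CPM at L3 to 4 and 2 counts and to 3 and 1 counts at 44 h. *sens*, a zinc finger gene of sensory precursors, was highest at 6 h (32.5 and 19.4 CPM) and stood at 1.66 and 1.82 CPM at 44 h. The other 2, *wg* and *ct*, were at log2 changes of -0.46 ± 0.20 and -0.21 ± 0.26 at 44 h, not past the test.

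*rn* had the fewest reads of the 8 at L3 and its course differed from the rest. It measured 36.1 and 49.8 CPM at L3, 81.6 and 67.3 (6 h), 41.3 and 26.6 (18 h), 52.7 and 31.6 (24 h), 20.6 and 11.7 (36 h), and 29.4 and 28.5 (44 h). The 6 h libraries lay above all others, and those of 36 h below all others. Against L3, *rn* was at +0.81 ± 0.31 on the log2 scale at 6 h (edgeR adjusted p 0.0509), which missed the threshold, and at -1.40 ± 0.34 at 36 h (adjusted p 0.00356), a call kept with each library left out. It fell by 1.12 ± 0.31 from 6 to 18 h (adjusted p 0.0123) and by 1.43 ± 0.34 from 24 to 36 h (adjusted p 0.00658). The first of these was lost without 6 h replicate 1 (-0.96) or 18 h replicate 2 (-0.85), and the other without 24 h replicate 1 (-0.97) or 36 h replicate 2 (-1.07, adjusted p 0.0744). At 44 h *rn* was at -0.55 ± 0.32 against L3 (adjusted p 0.146). Squeeze, the closest relative of Rn, is encoded by *sqz*, which fell from 15.7 and 16.7 CPM at L3 to 7.44 and 4.20 (18 h) (log2 change -1.41 ± 0.30, adjusted p 0.00563) and was at 6.64 and 7.08 CPM at 44 h. *sqz* had no rise at 6 h (15.1 and 12.2 CPM).

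In the order of mean levels most neighbours did not differ past the test. The exception was *tsh*, whose 6 h level was above the next one down, that of 24 h (edgeR adjusted p 0.00114; 27.8% of all genes passed between 24 h and 6 h). Neighbours with an adjusted p under 0.05 but less than 2-fold apart were *sd* at 24 h and L3 (0.039) and at 36 h and 6 h (0.0306; 45% of all genes under 0.05), *ap* at L3 and 44 h (0.0163), *Dll* at 6 h and 44 h (0.0213; 42.2% of all genes) and *tsh* at L3 and 6 h (0.00445). For *vg*, *nub*, *hth* and *rn* no neighbouring levels were told apart from each other.

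The choice of scaling bore on the size of these falls. TMM factors were 0.70 and 0.72 in the 44 h libraries and 1.22 and 1.37 in those of L3. With library size alone the median log2 change of all tested genes at 44 h moved to -0.87, and all 8 factors were lower past the test, *vg* at -1.46 and *nub* at -1.26, beside 44.8% of all tested genes (21.5% with TMM).

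Levels of different factors were set side by side per kilobase of annotated exon. On this scale *hth* was the highest at L3 (230 and 152 CPM per kilobase), 6, 36 and 44 h (73.8 and 81.4), and *sd* had the highest mean at 18 h (115 and 130, overlapping *hth* at 89.8 and 133). At 24 h *sd* and *hth* stood together at 117 and 114 against 110 and 121 CPM per kilobase. *tsh* went from 31.8 and 33.9 CPM per kilobase at L3, the fifth of the 8, to 8.03 and 8.58 at 18 h, the seventh, where it stayed. *rn* was the lowest at all 6 timepoints, at 5.75 and 7.93 CPM per kilobase at L3 and 3.28 and 1.86 at 36 h. Among 6518 tested genes with a length, *hth* lay at the percentile 96.7 at L3 and 87.6 at 44 h, and *tsh* at 79.4 and 41.4.

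The deposited RPKM values order the factors differently. By mean RPKM *nub* was the first or the second of the 8 at every timepoint, at 441 at L3 and 760 at 18 h, whereas per kilobase of exon it was between the fifth and the seventh. The length that the counts and RPKM imply for *nub* was 136 bases, or 2.58% of its 5278 bases of annotated exon. For *Dll* it was 566 of 3309 bases (17.1%) and for *hth* 1923 of 11839 (16.2%). Over the 6518 genes the implied length had a median of 71.3% of the exon length, and for 2470 genes (37.9%) it was under 50%. RPKM levels of different genes were therefore not compared, while changes within a gene do not depend on its length.

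**Figure D4:**
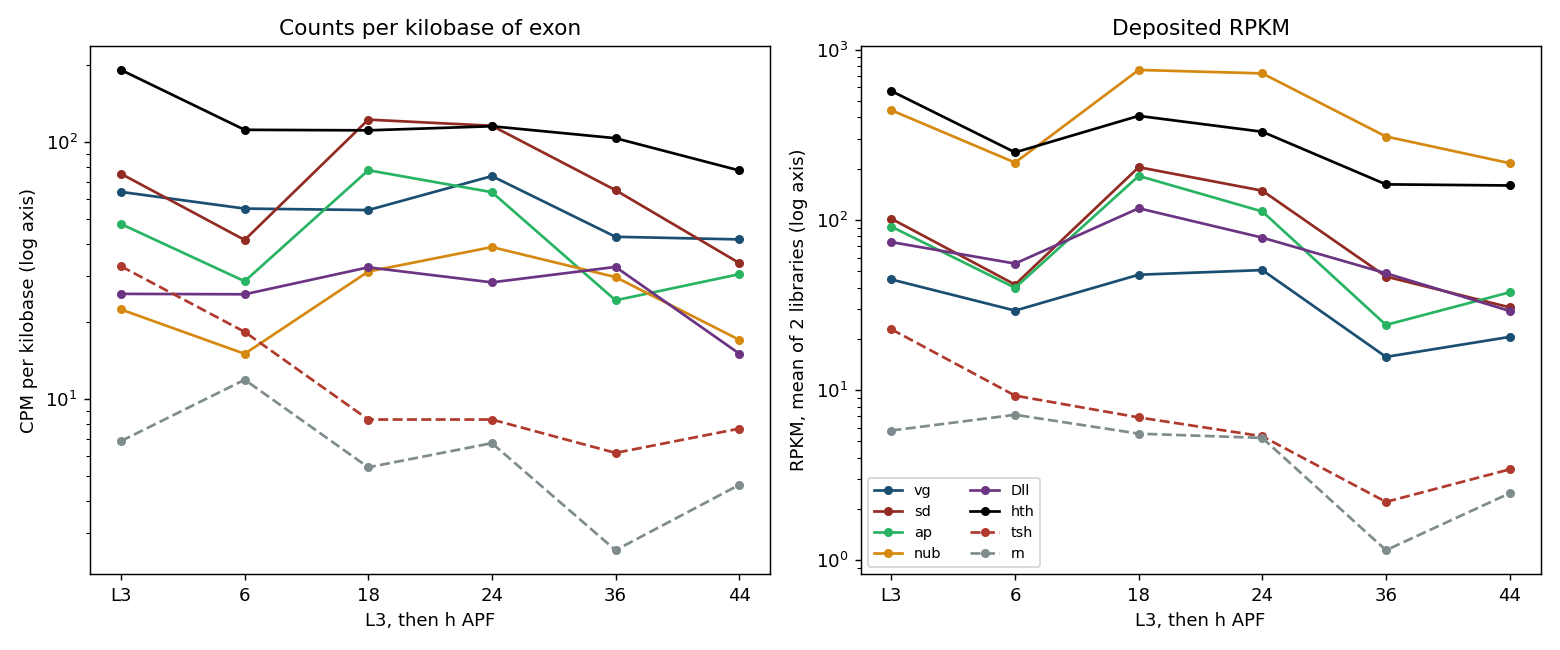
Mean level of each factor over the 2 libraries of each timepoint, as TMM-scaled CPM per kilobase of annotated exon (left) and as deposited RPKM (right), both on log axes. *nub* is at 441 RPKM at L3 and 760 at 18 h, near the top on the right, and at 22.3 and 31.3 CPM per kilobase, in the lower part of the left panel.

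The other territories of the disc gave a background for the members. Of 8 hinge and proximal genes, 7 were tested, and at 44 h against L3 1 was higher and 4 lower. *dac* (15.7 and 17.0 CPM at L3, 3.56 and 5.06 (44 h)) and *Sox15* (62.3 and 63.0 to 19.0 and 21.9) were among the lower ones, and *Lim1*, which had 1 and 0 counts at L3, was at 4.27 and 2.23 CPM. Of 8 blade patterning genes 1 was higher and 3 were lower: *dve* (40.1 and 41.6 to 1.42 and 4.25 CPM), *salr* (252 and 197 to 50.3 and 55.0) and *bi* (511 and 317 to 144 and 157). Of the 8 cofactors and paralogs 0 were higher and 3 lower (*Bx*, *tio* and *sqz*). Falls at 44 h thus occurred in each of the disc territories listed other than the dorsal compartment genes, beside 21.5% of all tested genes.

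Over the 12 libraries, the genes whose log2 CPM had the highest Pearson correlation with each factor among 8468 were, as a description, *stg* (0.98), *nmo* (0.97) and *bip1* (0.97) for *sd*. For *ap* they were *Dcr-2* (0.98), *l(2)NC136* (0.98) and *nonA-l* (0.97), and for *nub* *CG10254* (0.96), *ari-2* (0.93) and *jar* (0.93). For *tsh* they were *CG11563* (0.98), *l(1)G0045* (0.98) and the notum gene *tup* (0.96), and for *hth* *bi* (0.95), *Nufip* (0.93) and a small nucleolar RNA gene (0.92). *Dll* was most like *CG2246* (0.87), *Optix* (0.86) and *CG34401* (0.85), *rn* most like *CG13506* (0.90), *CG32112* (0.88) and *RhoGAP92B* (0.87), and *vg* most like *CG10803* (0.85), the same small nucleolar RNA gene (0.85) and *vvl* (0.84). Among the members themselves the highest values were *sd* with *ap* (0.79) and with *nub* (0.78), and *sd* with *vg* was at 0.54. These points share libraries and timepoints, so they are not independent.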

How the data were processed

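RNAseq libraries from staged wings were made with a stranded mRNA kit, with independent replicates at each timepoint. The authors mapped reads to dm3 with Tophat2, used Htseq-count for the number of reads per gene, and deposited these raw counts; the strand setting of the counting is not given in the sources used here. The deposited RPKM values were computed by the authors with edgeR, and 2 of their columns match no sample and were not used. Records not assigned to a gene (44.0 to 75.2% of a library) did not enter the library sizes used here. The deposited RPKM values match library sizes that did include them, with which each member's implied length was the same in every library. These records made up 44.0 and 55.5% at 18 h and 65.9 and 75.2% at 36 h.

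TMM scaled the counts, which were fitted with edgeR 4.0.16 (R 4.3.3) over 12 libraries with timepoint as the only term. Genes with a log2 CPM (prior count 2) above 2 in at least 1 library were tested, the expression threshold in the study's methods. The p-values measure the spread between these replicates. The members and lists were chosen with earlier results of these data known. All 8 members are named, all cofactors and paralogs, and of the other lists up to 3 genes with the largest change at 44 h against L3 past the test, with the full notum list and *wg* and *ct* added after their values were seen.

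Marker lists not described with the members gave these numbers higher and lower at 44 h against L3, when 26.9% of all tested genes were higher and 21.5% lower: flight muscle precursors 0 and 3 of 5 tested, peripodial, haltere or leg disc 1 and 2 of 3, trachea 0 and 0 of 2, hemocytes 1 and 1 of 3, fat body 5 and 0 of 5, and neurons 2 and 0 of 2.

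Lengths per kilobase are the union of exons in the BDGP6 annotation, in place of the planned lengths implied by RPKM, which were far shorter for several members. The counts were made on dm3, so no coordinates are given. The annotation places *vg*, *ap* and *Dll* on arm 2R, *nub* and *tsh* on 2L, *hth* and *rn* on 3R and *sd* on X. Promoter and protein sequences were not used here, and the planned motif search was not run. The alternatives were DESeq2 1.42.0 size factors and its Wald test, library size alone, 2 other filters, a prior count of 0.5, RPKM with limma 3.58.1 at pseudocounts of 0.1 and 1, the 4 libraries of a comparison alone, a replicate block, no fold minimum, and each library left out. The fit was tested on simulated data.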

Additional observations from a re-analysis of the deposited data

How the results depend on the processing

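Of the 11 alternatives, no fold minimum uses the main fit and cannot lose a call. Of the 15 changes past the test, 12 kept their direction and the call under all 11. The exceptions were *tsh* and *rn* from 6 to 18 h, lost with library size alone (log2 change -0.64 and -0.61) and with RPKM, and *Dll* from 36 to 44 h, lost with RPKM (-0.74 at a pseudocount of 1). With library size alone the numbers of factors past the test were 5, 5 and 8 at 6, 36 and 44 h against L3. All were falls, beside 30.6%, 33.9% and 44.8% of all tested genes. From 6 to 18 h it was 3 factors, all higher, beside 3 higher and 2 lower with TMM. Of all genes called at that step, 69.6% were higher. From 24 to 36 h 4 factors fell (21.4% of all genes did) and from 36 to 44 h 3 (15.8%). The median change of all tested genes under it was between -0.87 and 0.51. With RPKM the numbers were 4, 6 and 6 at 6, 36 and 44 h against L3 at both pseudocounts, again all falls. At a pseudocount of 0.1, 22.7%, 44.2% and 35.5% of all tested genes fell there, and at 1, 19.4%, 37.1% and 29.9%. From 24 to 36 h 7 factors fell at a pseudocount of 0.1 (36.8% of all genes) and 6 at 1 (26.7%). From 36 to 44 h it was 0 at both, where 1395 and 1150 of the 8469 genes were called. From 6 to 18 h RPKM added a rise of *Dll* (1.08 and 1.06). With no fold minimum the numbers were 3, 3, 3, 4 and 5 at 6, 18, 24, 36 and 44 h against L3. The shares of all genes at each are given above. From 24 to 36 h it was 3 (with *sd* added) and from 36 to 44 h 3, all falls. Beside these, 16.7% and 13% of all genes fell. Each library was also left out in turn. A timepoint left with 1 library is assumed to vary like the others. At 6 h against L3 the added falls were *sd* and *hth* without L3 replicate 2 or 6 h replicate 2, and *tsh* without 6 h replicate 1. From 36 to 44 h, without 36 h replicate 1, *sd* (-1.02) and *rn* (1.31) were added. Same-numbered replicates showed correlations of their deviations between -0.16 and 0.20 over 15 pairs of timepoints, so the numbers do not pair the samples. With a replicate block the numbers were 0, 1, 1, 2 and 3 against L3 and 5, 0, 2 and 1 between consecutive timepoints, as without it. The share of calls that were higher among all genes at 44 h against L3 was 55.5% with TMM, 28.4% with library size alone and 36.2% with RPKM at a pseudocount of 0.1. Promoter motifs were not run.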
